A study of Homo sapiens with 27 samples.

Results

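The genes described here are 10 listed targets of Wnt signalling and intestinal stem cell genes: AXIN2, CCND1, MYC, LGR5, ASCL2, EPHB2, SOX9, NKD1, ZNRF3 and TCF7. They were taken by symbol from the deposited table of 10470 genes. The table had rows for 8 of the 10, and ASCL2 and TCF7 are not analysed here. Of the 8, 6 had a mean of at least 10 transcripts in each 1000000 (TPM) over all libraries. LGR5 (9.78 TPM) and NKD1 (2.69 TPM) did not.

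In Wnt signalling, a ligand bound to Frizzled and LRP receptors stops the destruction complex of APC, AXIN and GSK3 from degrading beta-catenin, which then switches on target genes with TCF proteins in the nucleus. In the intestine this pathway maintains the stem cells at the crypt base, and several of its targets feed back on it. DLD1 is a human colorectal carcinoma line with a truncated APC, in which beta-catenin signalling is active without ligand. VPS37A, VPS37B and VPS37C are alternative subunits of ESCRT-I, the endosomal complex that sends ubiquitinated membrane proteins to lysosomes.

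RNA of DLD1 cells was measured with an amplicon panel of human transcripts in 27 libraries, 3 for each of 9 groups, all collected 72 h after transfection. The groups were untransfected cells (NT), cells given control siRNA (siCTRL) and cells given siRNA against the paralogs. The single knockdowns are named siVPS37A, siVPS37B and siVPS37C. The double knockdowns are siVPS37AB, siVPS37AC and siVPS37BC, and the triple knockdown is siVPS37ABC. A single siRNA sequence was used against each paralog, so an effect of the paralog and an effect of that sequence cannot be told apart. The labels give each replicate number as a batch, and nothing else in them says that replicates were separate cultures, so the p-values measure the spread between these libraries.

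The siRNAs lowered their targets in every library that received them, VPS37A to between 2.52 and 10.2%, VPS37B to between 2.08 and 8.78% and VPS37C to between 17.8 and 31.8% of the siCTRL mean. Markers of colorectal epithelium (8 of 9 listed were in the table) summed to between 7849 and 12580 TPM in the libraries. Most of that sum was KRT8, KRT18, KRT19 and EPCAM (means of 3295, 2521, 2184 and 1776 TPM), while VIL1 averaged 1.99 TPM. Markers of other cell types were low: ACTA2, the single fibroblast marker of 9 in the table, reached 5.83 TPM at most, 3 leukocyte markers of 9 summed to at most 13.5 TPM and the 1 endothelial marker of 6, EGFL7, reached 7.37 TPM. The sequencing depth is unknown, and the values carry no statement on division by gene length, so levels are compared between groups and not between genes. In bulk samples fewer cells expressing a gene and less RNA per cell cannot be told apart. A change is a difference of group means of log2(TPM + 1). Its standard error (SE) and p-value were obtained with limma on all 27 libraries together, with p-values adjusted by the Benjamini-Hochberg method over all genes tested. A gene counts as called at an adjusted p under 0.05. The fitted median SE between groups was 0.17 over the 6458 tested genes.

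**Figure D1:**
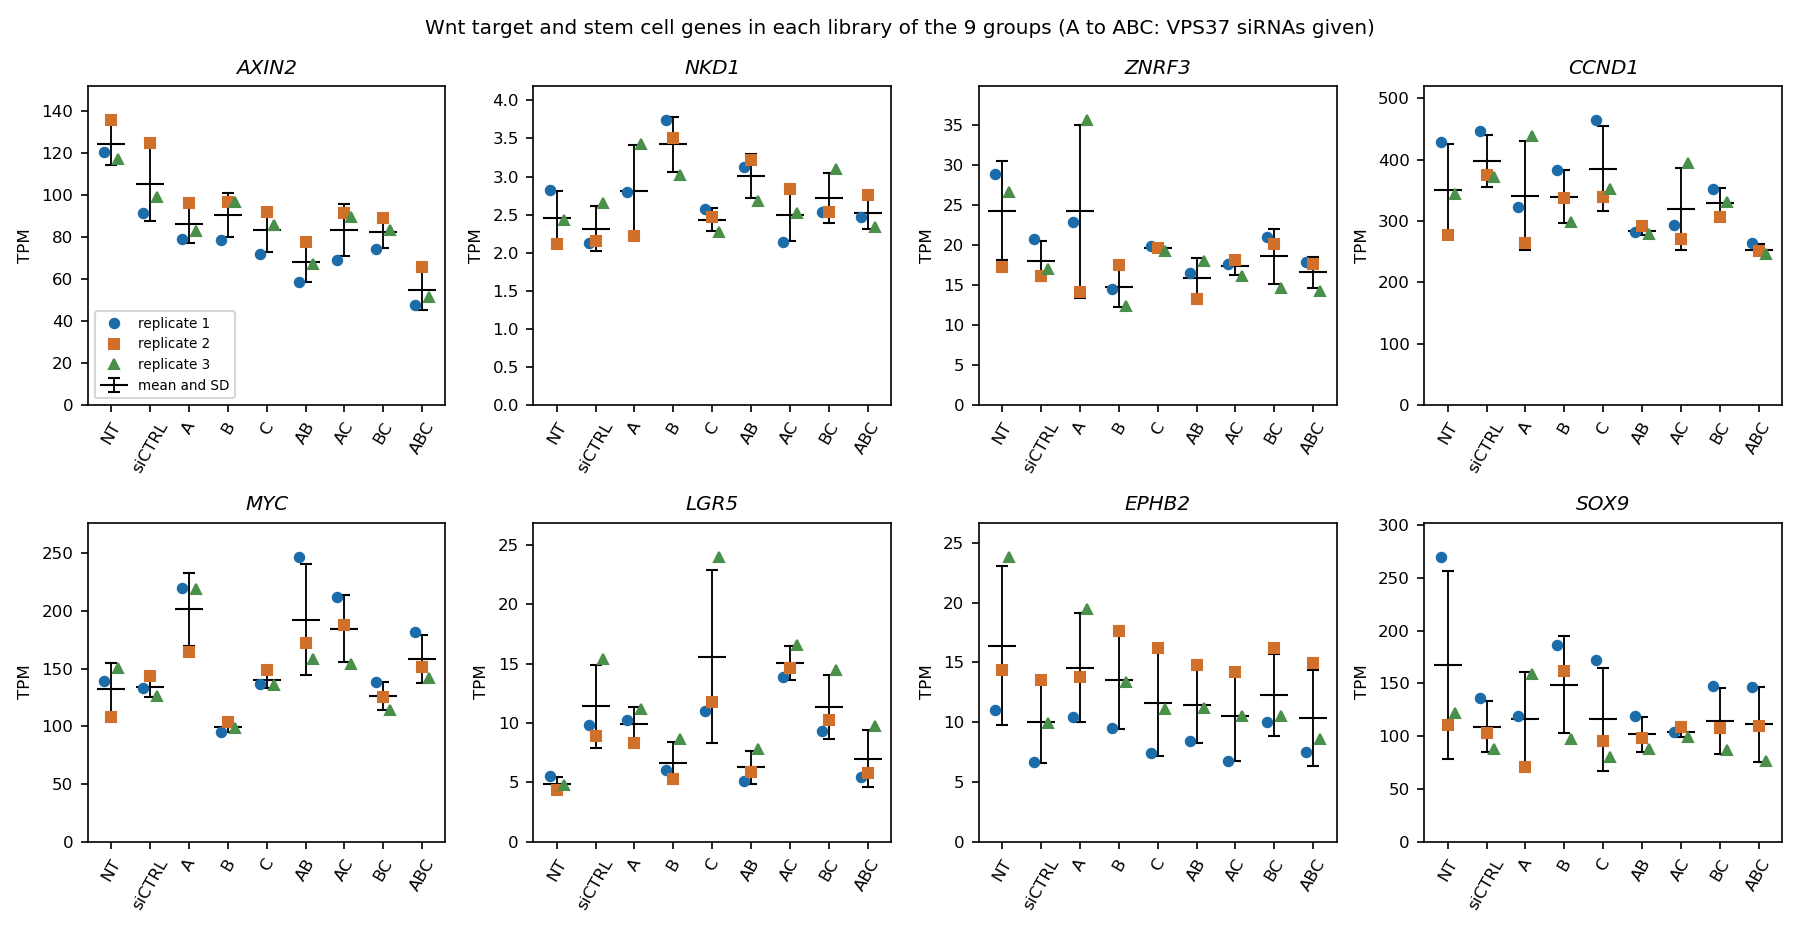
Levels of the 8 genes in TPM (vertical axes, from 0, each with its own range) in the 9 groups (horizontal axes), with a point for each library, a horizontal bar for the group mean and a vertical bar for the SD (n = 3). AXIN2 has its lowest mean in siVPS37ABC (47.7 to 65.9 TPM), MYC is lowest in siVPS37B (95.4 to 104 TPM), and EPHB2 and SOX9 spread more by replicate than by group.

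AXIN2 (NM_004655) encodes a scaffold of the beta-catenin destruction complex and is a feedback target of the pathway it limits. Its level was 91.3, 125 and 99.2 TPM in siCTRL replicates 1, 2 and 3 and 47.7, 65.9 and 51.4 TPM in siVPS37ABC. No siVPS37ABC library reached the lowest siCTRL library. AXIN2 fell by 0.92 ± 0.16 on the log2 scale with all paralogs depleted (SE, n = 3, adjusted p = 9.49e-05), to a mean of 52.3% of siCTRL. In siVPS37AB it measured 58.8, 77.7 and 67.1 TPM, again below every siCTRL library, and it fell by 0.62 ± 0.16 (adjusted p = 0.00764), to 64.6%.

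AXIN2 in the other 5 knockdowns had means between 78.2 and 86.3% of siCTRL and were not called. The libraries measured 78.9, 96.3 and 82.9 TPM in siVPS37A, 78.5, 96.6 and 96.9 TPM in siVPS37B, and 72.0, 92.1 and 85.7 TPM in siVPS37C. They measured 68.9, 91.2 and 89.5 TPM in siVPS37AC and 74.2, 89.0 and 83.6 TPM in siVPS37BC. The single knockdowns overlapped siCTRL, whose replicate 1 (91.3 TPM) was low, and the highest siVPS37AC and siVPS37BC libraries lay just below it. Within batches, however, all 7 knockdowns were lower than the siCTRL library of the same replicate number in 3 of 3 batches. All 7 comparisons share the same 3 siCTRL libraries, so they are not independent of each other. The differences were -0.92, -0.91 and -0.94 for siVPS37ABC and -0.63, -0.68 and -0.56 for siVPS37AB. Within a batch, the number closing each library description also differed between siCTRL and each knockdown, except siVPS37B and siVPS37C in replicate 3. The part of that number in these within-batch differences was not tested. With the batch as a block in the model, siVPS37AC (-0.33, adjusted p = 0.260 without and 0.0256 with the block) and siVPS37BC (-0.34, 0.372 and 0.0413) were called too.

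Ordered by mean, AXIN2 ran from NT (124 ± 9.86 TPM, SD) through siCTRL (105 ± 17.5), siVPS37B (90.7 ± 10.5), siVPS37A (86.0 ± 9.10), siVPS37C (83.2 ± 10.3), siVPS37AC (83.2 ± 12.4), siVPS37BC (82.2 ± 7.48) and siVPS37AB (67.9 ± 9.51) to siVPS37ABC (55.0 ± 9.64). The ranges of all neighbours in this order overlapped. NT measured 120.3, 136 and 117 TPM, and its difference from siCTRL was not called (siCTRL lower by 0.25 ± 0.16 on the log2 scale, adjusted p = 0.419). Against NT in place of siCTRL, the 7 knockdowns lay between -0.46 and -1.17, and the calls widened. AXIN2 was then lower in siVPS37A (adjusted p = 0.0376, 7.09% of tested genes called), siVPS37C (0.0262, 5.54%), siVPS37AC (0.0141, 14.1%) and siVPS37BC (0.0233, 5.54%) as well, and siVPS37B stayed uncalled (0.0940).

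Depleting the third paralog changed AXIN2 from 2 of the 3 pairs. The triple knockdown was lower than siVPS37AC by 0.59 ± 0.16 (adjusted p = 0.0257) and lower than siVPS37BC by 0.58 ± 0.16 (0.0135), and the ranges did not overlap in either case. Against siVPS37AB the difference of -0.30 ± 0.16 was not called (adjusted p = 0.607, 95% confidence interval -0.62 to 0.02). Single libraries decided some of these calls. The call of siVPS37AB against siCTRL was lost without siCTRL replicate 2 (adjusted p = 0.0616) or siVPS37AB replicate 1 (0.0560). That against siVPS37AC was lost without siVPS37AC replicate 2 (0.110) or 3 (0.113) or siVPS37ABC replicate 1 (0.132) or 3 (0.0686), and when only those groups were fitted (0.0743). That against siVPS37BC was lost without siVPS37BC replicate 2 (0.0678) or siVPS37ABC replicate 1 (0.0693) or 3 (0.0566). The call of siVPS37ABC against siCTRL remained in each omission.

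NKD1 (NM_033119), an inhibitor of Dishevelled, and ZNRF3 (NM_001206998), a membrane ubiquitin ligase that removes Frizzled receptors from the cell surface, are the other feedback genes of the list. Neither was called in any comparison by the model of group means alone. NKD1 was low, between 2.12 and 3.74 TPM in all libraries. Its highest group was siVPS37B, with 3.74, 3.50 and 3.02 TPM beside 2.13, 2.16 and 2.66 TPM in siCTRL. These groups did not overlap, but the difference of 0.42 ± 0.14 was called only with the block (adjusted p = 0.110 without and 0.0497 with it).

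ZNRF3 measured 20.8, 16.1 and 17.1 TPM in siCTRL and 17.9, 17.6 and 14.3 TPM in siVPS37ABC, with overlapping ranges. Its widest group was siVPS37A, at 22.9, 14.1 and 35.7 TPM. Against siCTRL its 7 changes lay between -0.27 and 0.32, with a mean SE of 0.23, and the smallest adjusted p was 0.576. In siVPS37ABC its 95% confidence interval was -0.57 to 0.35. ZNRF3 was called for VPS37B siRNA over all groups with the number closing each library description in the model (-0.43, adjusted p = 0.0276, 15.3% of tested genes called) or without siVPS37A replicate 2 (-0.31, 0.0317), and without that library also between siVPS37A and siVPS37B (0.92, 0.0106).

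CCND1 (NM_053056) encodes cyclin D1, which drives entry into the cell cycle. Its level was 447, 374 and 372 TPM in siCTRL and 264, 250.5 and 246 TPM in siVPS37ABC. The siVPS37ABC libraries lay close together and below all siCTRL libraries. CCND1 fell by 0.64 ± 0.17 (adjusted p = 0.00848), to 63.7% of the siCTRL mean, and the call was kept when any library of either group was left out. Within batches the differences were -0.76, -0.58 and -0.60.

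In NT, CCND1 measured 429, 277 and 344 TPM, a spread wider than in siCTRL that stayed above the siVPS37ABC libraries. Against NT the fall in siVPS37ABC was 0.44 and was not called (adjusted p = 0.0630). Depletion of VPS37A with VPS37B gave 283, 292 and 278 TPM, below all siCTRL libraries. That difference, -0.48 ± 0.17, was not called (adjusted p = 0.0638), except with the block (0.0203) and when only those groups were fitted (0.0255). siVPS37AB and siVPS37ABC, the lowest groups, did not overlap, but their difference was -0.17 ± 0.17 (adjusted p = 0.908).

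The other knockdowns of CCND1 overlapped siCTRL, except siVPS37BC, which lay below it. They measured 322, 264 and 438 TPM in siVPS37A, 384, 338 and 298 TPM in siVPS37B, and 464, 339.6 and 352 TPM in siVPS37C. They measured 293, 271 and 395 TPM in siVPS37AC and 353, 306 and 331 TPM in siVPS37BC. In the groups given VPS37A siRNA without VPS37B siRNA, replicate 3 stood above the other libraries (438 TPM in siVPS37A, 395 TPM in siVPS37AC). The 5 changes lay between -0.33 (siVPS37AC) and -0.05 (siVPS37C).

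MYC (NM_002467) encodes a transcription factor of growth and proliferation genes. It was the 1 gene of the list called higher with VPS37A siRNA. Its siCTRL libraries measured 133, 144 and 126 TPM. Those of siVPS37A measured 220.2, 165 and 219 TPM, those of siVPS37AB 247, 173 and 158 TPM, and those of siVPS37AC 212, 188 and 154 TPM. All libraries of these 3 groups exceeded the highest siCTRL library. In siVPS37ABC, at 182, 152 and 142 TPM, replicate 3 was within the siCTRL range.

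The rise of MYC was called against siCTRL in siVPS37AB (0.49 ± 0.16, adjusted p = 0.0403). It lost its call without any of siCTRL replicates 1 (adjusted p = 0.0914), 2 (0.0595) and 3 (0.125) and without siVPS37AB replicate 1 (0.288). It also lost it when the number closing each library description was added to the model (0.376), after quantile normalization (0.0897) and when only those groups were fitted (0.0728). In siVPS37A the change was 0.57 ± 0.16 (adjusted p = 0.0672, and 0.0149 with the block) and in siVPS37AC it was 0.45 ± 0.16 (0.122 and 0.0400). In siVPS37ABC it was 0.23 ± 0.16 (0.331). The siVPS37A change was also called without siVPS37A replicate 2 (0.0356). Against NT the siVPS37A (0.60, 0.0233), siVPS37AB (0.52, 0.0244) and siVPS37AC (0.48, 0.0488) differences were called, and that of siVPS37ABC was not (0.26, 0.251). All 4 groups were above siCTRL in 3 of 3 batches, with the same siCTRL libraries in each comparison.

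VPS37B siRNA alone gave the lowest MYC levels of the 9 groups, 95.4, 104 and 98.4 TPM. Every siVPS37B library was below every library of the other groups. Against siCTRL the change of -0.43 ± 0.16 was not called (adjusted p = 0.175, and 0.0546 with the block), with within-batch differences of -0.47, -0.46 and -0.36. The remaining groups were near siCTRL, with 137, 149 and 135 TPM in siVPS37C, 139, 126 and 114 TPM in siVPS37BC and 139.6, 108 and 151 TPM in NT.

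The single knockdowns were compared with each other after these values had been seen. MYC was higher in siVPS37A than in siVPS37B by 1.00 ± 0.16 on the log2 scale (adjusted p = 3.17e-04, where 7.84% of all tested genes were called), and by 1.20, 0.66 and 1.15 in the 3 batches. This call was kept under the 7 alternatives run for it and in each of the 6 omissions of a library. Between siVPS37A and siVPS37C the difference was 0.51 ± 0.16 (adjusted p = 0.103), and no gene of the list was called in that comparison (2.62% of all tested genes). MYC was called there with the block (0.0257, 7.43% of tested genes) and with the description number in the model (0.0492). The departure of siVPS37AB from the sum of the single knockdowns was 0.35 ± 0.23 for MYC (adjusted p = 0.737).

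LGR5 (NM_003667) encodes the R-spondin receptor that marks crypt base stem cells. Its levels were low, and the test came from the same model without the filter of 10 TPM (10470 genes). Libraries of siCTRL measured 9.85, 8.94 and 15.4 TPM. Those of siVPS37B measured 6.06, 5.30 and 8.61 TPM, those of siVPS37AB 5.10, 5.87 and 7.81 TPM, and those of siVPS37ABC 5.44, 5.75 and 9.74 TPM. The first 2 of these groups lay below all siCTRL libraries and siVPS37ABC overlapped them through replicate 3.

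LGR5 fell in siVPS37AB by 0.75 ± 0.25 (adjusted p = 0.0451), to 55.0% of the siCTRL mean. The call was lost without siCTRL replicate 1 (adjusted p = 0.0630) or 3 (0.226) or siVPS37AB replicate 1 (0.169) or 2 (0.109), with that description number in the model (0.357) and with a pseudocount of 8 (0.0673). In siVPS37B the change was -0.68 ± 0.25 (adjusted p = 0.163, and 0.0113 with the block) and in siVPS37ABC it was -0.64 ± 0.25 (0.0734 and 0.00360). The siVPS37ABC change was also called after quantile normalization (0.0198) and without siVPS37ABC replicate 3 (0.0238). All 3 groups were below siCTRL in 3 of 3 batches, with the same siCTRL libraries in each comparison.

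The groups given VPS37C siRNA without VPS37B siRNA had the highest LGR5 levels. They measured 11.0, 11.8 and 24.0 TPM in siVPS37C and 13.9, 14.6 and 16.6 TPM in siVPS37AC. Both overlapped siCTRL, and the changes of 0.37 ± 0.25 (adjusted p = 0.810) and 0.40 ± 0.25 (0.464) were not called, although with the description number in the model siVPS37AC was (0.00524). Groups siVPS37A (10.2, 8.32 and 11.2 TPM) and siVPS37BC (9.34, 10.3 and 14.5 TPM) were near siCTRL, with changes of -0.16 and 0.01.

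LGR5 was also compared between knockdowns. The triple knockdown was lower than siVPS37AC by 1.04 ± 0.25 (adjusted p = 0.0142), and the groups did not overlap. This call was lost without siVPS37AC replicate 3 (0.0682) or siVPS37ABC replicate 1 (0.0777) or 2 (0.0748). Against siVPS37BC the difference was -0.65 ± 0.25 (adjusted p = 0.100, and 0.00535 with the block, 0.00844 with the description number, 0.0348 after quantile normalization and 0.0428 without siVPS37ABC replicate 3), and against siVPS37AB it was 0.11 ± 0.25 (0.965). In a comparison added after the values were seen, siVPS37B was lower than siVPS37C by 1.05 ± 0.25 (adjusted p = 0.0106, where 7.18% of the filtered and 6.81% of all genes were called). That call was lost without siVPS37B replicate 2 (0.0696) or siVPS37C replicate 3 (0.115) and when only those groups were fitted (0.112).

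LGR5 also differed between the controls. NT measured 5.50, 4.36 and 4.75 TPM, below all siCTRL libraries, and siCTRL was higher by 1.05 ± 0.25 (adjusted p = 0.0193). Without NT replicate 2 (0.0581), NT replicate 3 (0.0751) or siCTRL replicate 3 (0.132) this was not called. Its 7 knockdown groups all had higher means than NT, with differences from 0.29 (siVPS37AB) to 1.45 (siVPS37AC). They were called in siVPS37A (adjusted p = 0.0325, 6.29% of all genes called), siVPS37C (0.00118, 6.06%), siVPS37AC (4.24e-04, 12.5%) and siVPS37BC (0.0127, 5.57%). So the sign of the LGR5 change in siVPS37B, siVPS37AB and siVPS37ABC depended on the control: these groups were below siCTRL and above NT (0.36, 0.29 and 0.41, none called).

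EPHB2 (NM_004442), a receptor kinase that positions cells along the crypt, and SOX9 (NM_000346), a transcription factor of crypt progenitors, were not called in any comparison by the model of group means alone. EPHB2 measured 6.65, 13.5 and 9.89 TPM in siCTRL and 7.48, 15.0 and 8.58 TPM in siVPS37ABC. SOX9 measured 136, 103 and 88.2 TPM in siCTRL and 147, 109.9 and 76.1 TPM in siVPS37ABC. In both genes the groups overlapped, and the same replicate was lowest, and the same highest, in both groups. The changes against siCTRL lay between 0.03 and 0.51 for EPHB2 and between -0.09 and 0.42 for SOX9, with a mean SE of 0.33 for each. In siVPS37ABC the 95% confidence intervals were -0.64 to 0.70 for EPHB2 and -0.68 to 0.67 for SOX9, and with the block they narrowed to between -0.36 and 0.42 and between -0.49 and 0.48.

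The highest EPHB2 and SOX9 libraries were untransfected. NT measured 11.0, 14.3 and 23.9 TPM for EPHB2 and 270.1, 110.3 and 122 TPM for SOX9. EPHB2 was lower in siCTRL than in NT by 0.64 ± 0.33, which was called only with the block (adjusted p = 0.316 without and 0.0355 with it). For SOX9 the difference was -0.52 ± 0.33 (adjusted p = 0.430, and 0.163 with the block). With the description number in the model SOX9 was called for VPS37A siRNA over all groups (-0.55, adjusted p = 0.00999, 36.8% of tested genes called) and between siVPS37A and siVPS37B (-0.71, 0.0495, 21.9%).

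**Figure D2:**
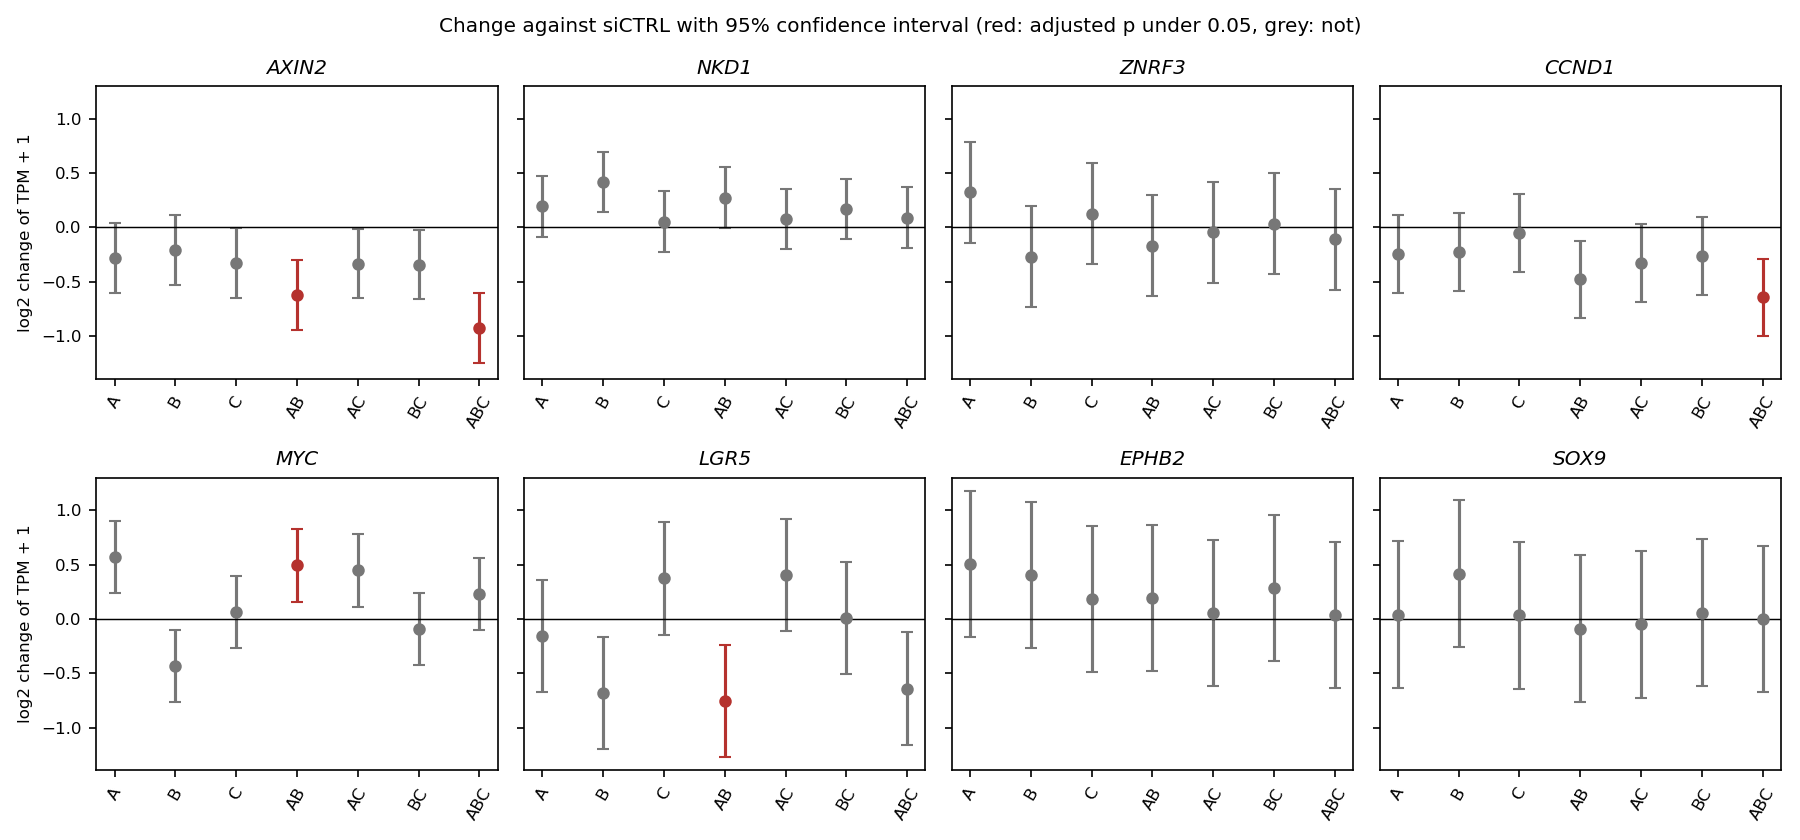
Change of each gene against siCTRL (vertical axes, log2 change of TPM + 1, shared range) in the 7 knockdowns (horizontal axes), with points for the fitted change and bars for its 95% confidence interval, red where the adjusted p was under 0.05. Red points are AXIN2 in siVPS37AB (-0.62) and siVPS37ABC (-0.92), CCND1 in siVPS37ABC (-0.64), and MYC (0.49) and LGR5 (-0.75) in siVPS37AB.

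Counted over the list, the knockdowns of 1 paralog called none of the 8 genes, where 1.83% (siVPS37A), 1.72% (siVPS37B) and 0.496% (siVPS37C) of the 6458 tested genes were called. Of the pairs, siVPS37AB called 3, with MYC higher and AXIN2 and LGR5 lower, where the share was 14.8% of the tested and 14.0% of all genes. siVPS37AC and siVPS37BC called none (4.4% and 1.29%). siVPS37ABC called 2, AXIN2 and CCND1, both lower (21.9% of the tested and 20.2% of all genes). The median change of the 8 was -0.13 in siVPS37AB and -0.06 in siVPS37ABC, beside 0.07 and 0.03 over all tested genes. The calls against siCTRL were thus lower for AXIN2, CCND1 and LGR5 and higher for MYC. Whether the counts among 8 genes differ from the shares was not tested.

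The other pairwise comparisons called between 0 and 2 of the 8 genes. The triple knockdown differed from siVPS37AB in none of the 8 genes (1.04% of tested genes). Against siVPS37AC it differed in AXIN2 and LGR5 (4.35% of tested and 4.62% of all genes), and against siVPS37BC in AXIN2 (12.0%). Control siRNA against NT called LGR5 alone (3.17% and 3.03%).

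The fit with the replicate block called more of the list and more genes in all. Its shares were 6.33% of tested genes in siVPS37A, where it called MYC, 11.8% in siVPS37AC (AXIN2 and MYC) and 4.38% in siVPS37BC (AXIN2). In siVPS37AB, where CCND1 joined AXIN2, MYC and LGR5, the share was 25.6%, and in siCTRL against NT, where EPHB2 joined LGR5, it was 8.86%. Over all genes it was 8.55% in siVPS37B (LGR5 and NKD1), 30.6% in siVPS37ABC (where LGR5 joined) and 19.9% for siVPS37ABC against siVPS37BC (where LGR5 joined).

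The 8 transfected groups form a full factorial design, in which 4 groups with an siRNA can be set against 4 without it. This uses 12 libraries a side and has SEs from 0.07 to 0.16 for these genes. With VPS37A siRNA, AXIN2 fell by 0.32 ± 0.08 (adjusted p = 0.00287) and CCND1 fell by 0.29 ± 0.09 (0.0145), while MYC rose by 0.55 ± 0.08 (1.16e-05). These 3 of 8 genes stand beside 29.1% of all tested genes. LGR5 was not called (-0.21 ± 0.13, adjusted p = 0.228), except with the block (0.0418, where 37.1% of all genes were called) and after quantile normalization (0.0454). The summed epithelial markers were also higher in siVPS37A (10560 to 12580 TPM), siVPS37AC (9755 to 10490 TPM) and siVPS37ABC (10070 to 11480 TPM) than in siCTRL (8334 to 9516 TPM), without overlap. In siVPS37AB (9362 to 10240 TPM) they overlapped siCTRL. The sums of siVPS37BC, which got no VPS37A siRNA, also lay above siCTRL without overlap (9519 to 11230 TPM). Those of siVPS37B (7849 to 9448 TPM) and siVPS37C (9332 to 11260 TPM) overlapped siCTRL. The markers did not all move alike. Of 7 tested, 3 were called higher and 1 lower in siVPS37ABC, and 4 higher and 1 lower with VPS37A siRNA over all groups. CDX2, among the markers, had means of 154.5 TPM in siCTRL, 113.2 in siVPS37A, 114.4 in siVPS37AC and 63.4 in siVPS37ABC. The part of these markers in these results and in those of siVPS37ABC against siCTRL was not tested.

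With VPS37B siRNA, AXIN2 fell by 0.29 ± 0.08 (adjusted p = 0.0121) and LGR5 fell by 0.67 ± 0.13 (6.56e-04), where 16.2% of tested and 15.2% of all genes were called. With the block CCND1 (-0.25 ± 0.09, adjusted p = 0.0522 without and 0.0150 with it) and MYC (-0.22 ± 0.08, 0.0638 and 0.0223) were called as well (28.8% of tested genes). Both were also called without siVPS37A replicate 2 (0.0210 and 0.0317). With VPS37C siRNA, LGR5 rose by 0.43 ± 0.13 (adjusted p = 0.0263), where 10.5% of tested and 10.2% of all genes were called. This call was lost without siCTRL replicate 2 (0.0543), siVPS37B replicate 2 (0.0519), siVPS37BC replicate 3 (0.0557) or siVPS37ABC replicate 3 (0.0546). The AXIN2 difference of -0.21 ± 0.08 with VPS37C siRNA was not called (0.0942), except with the block (0.00355, where 20.8% were called), with the description number in the model (0.0288) and without siVPS37ABC replicate 2 (0.0482).

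Across the 3 siRNAs AXIN2 thus had 3 differences of one sign, of which that for VPS37C siRNA was not called without the block. CCND1 had 3 negative differences too, that for VPS37C siRNA being -0.09 ± 0.09 (adjusted p = 0.601). The MYC difference was positive for VPS37A siRNA and negative for VPS37B siRNA, and the LGR5 difference was negative for VPS37B siRNA and positive for VPS37C siRNA. The departure of siVPS37AB from the sum of siVPS37A and siVPS37B was not called for any of the 8 genes (smallest adjusted p = 0.711) nor for any tested gene (0.0%, with 7.48% at an unadjusted p under 0.05).

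**Figure D3:**
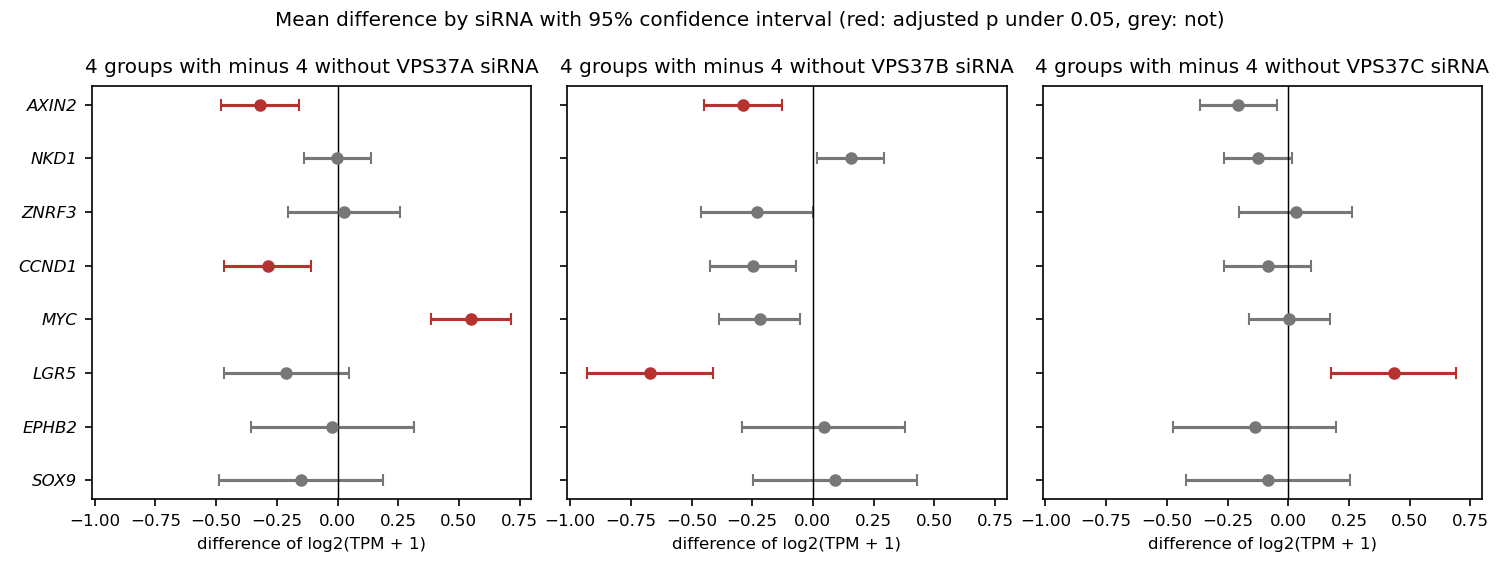
Mean difference of log2(TPM + 1) between the 4 groups with and the 4 without each siRNA (horizontal axes, shared range) for the 8 genes (vertical axis), with 95% confidence intervals, red where the adjusted p was under 0.05. The difference of MYC is 0.55 for VPS37A siRNA and -0.22 for VPS37B siRNA, and that of LGR5 is -0.67 for VPS37B siRNA and 0.43 for VPS37C siRNA.

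The genes also differed in how much of their variation lay between groups and how much between replicate numbers. For AXIN2, 81.0% of the variance of log2(TPM + 1) lay between groups and 15.7% between replicate numbers, for MYC 77.9 and 5.82%, and for LGR5 76.5 and 16.1%. CCND1 (51.3 and 14.6%), NKD1 (55.7 and 0.616%) and ZNRF3 (41.7 and 6.76%) were closer to the median tested gene (48.4 and 15.8%). EPHB2 (24.4 and 54.2%) and SOX9 (21.9 and 39.9%) varied more with the replicate number than with the group.

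These replicate patterns recurred in most groups. EPHB2 was lowest in replicate 1 in 9 of 9 groups, with a mean of 8.63 TPM over replicate 1, 15.1 over replicate 2 and 13.2 over replicate 3. SOX9 was highest in replicate 1 in 7 of 9 groups (means of 156, 107 and 99.4 TPM). LGR5 was highest in replicate 3 in 8 of 9 groups (8.49, 8.36 and 12.5 TPM). AXIN2 was lowest in replicate 1 in 8 groups and highest in replicate 2 in 8.

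Genes upstream in the pathway were read from lists of receptors, cytoplasmic components and nuclear cofactors, each beside the triple knockdown's share of 21.9%. Wnt ligands and their secretion had 2 tested genes, and neither was called in siVPS37ABC: PORCN, which acylates Wnt proteins, changed by -0.32 ± 0.17 (adjusted p = 0.181), and WLS, which carries them to the cell surface, by 0.01 ± 0.21 (0.980). Of 6 tested receptor genes 1 fell, KREMEN1, a receptor of DKK inhibitors (-0.64 ± 0.19, adjusted p = 0.0168). Its libraries measured 19.4, 25.1 and 26.4 TPM in siCTRL and 11.5, 18.7 and 14.5 TPM in siVPS37ABC. The KREMEN1 call was lost without siCTRL replicate 2 (0.0615) or 3 (0.0775) or siVPS37ABC replicate 1 (0.112) and when only those groups were fitted (0.0504), and against NT the change was -0.18 (0.542).

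Of 13 tested cytoplasmic components, 4 rose in siVPS37ABC and none fell, with a median of 0.17 beside 0.03 for all tested genes. They were GSK3B, the kinase that marks beta-catenin for degradation (0.54 ± 0.13, adjusted p = 0.00375), DVL1, the Dishevelled adaptor that relays the receptor signal (0.69 ± 0.17, 0.00429), TNKS2, a tankyrase that destabilises AXIN proteins (0.50 ± 0.16, 0.0203), and CTNNB1, which encodes beta-catenin itself (0.33 ± 0.12, 0.0408). CTNNB1 measured 259, 286 and 314 TPM in siCTRL and 351, 337 and 394 TPM in siVPS37ABC, and the groups did not overlap. The CTNNB1 call was lost without siCTRL replicate 1 (0.169) or 2 (0.0839) or siVPS37ABC replicate 1 (0.0672) or 3 (0.148), after quantile normalization (0.0528) and when only those groups were fitted (0.139). That of TNKS2 was lost without siCTRL replicate 1 (0.0601) or 2 (0.0883) or siVPS37ABC replicate 2 (0.0735) and when only those groups were fitted (0.0580). The 4 genes include components that promote and components that limit signalling. With VPS37A siRNA over all groups, 7 of the 13 were higher and none lower, where 29.1% of tested genes were called.

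Of 12 tested TCF and beta-catenin cofactors, 2 rose in siVPS37ABC: PYGO2 (0.90 ± 0.21, adjusted p = 0.00248) and BCL9L (0.69 ± 0.21, 0.0167), which link beta-catenin to the transcription machinery. PYGO2 measured 16.2, 13.4 and 10.9 TPM in siCTRL, 26.9, 24.9 and 25.4 TPM in siVPS37ABC and 47.4, 35.4 and 23.8 TPM in NT. Its siCTRL level was below that of NT (-1.30 ± 0.21, adjusted p = 4.62e-04), and against NT its change in siVPS37ABC was -0.40 (0.166). BCL9L was not called against NT (0.14, 0.659), with the description number in the model (0.146) or without siCTRL replicate 3 (0.0971) or siVPS37ABC replicate 1 (0.0528) or 2 (0.0626).

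Of 9 further tested Wnt targets and stem cell genes, 2 fell and 1 rose in siVPS37ABC, with a median of -0.31. BMP4, a secreted ligand, fell by 0.77 ± 0.13 (adjusted p = 8.04e-05), from between 938 and 1007 TPM in siCTRL to between 522 and 622 TPM. SLC12A2, an ion cotransporter of crypt cells, fell by 0.63 ± 0.21 (0.0346), a call lost without siCTRL replicate 2 (0.0929) or 3 (0.187) or siVPS37ABC replicate 1 (0.153) or 2 (0.0515), with the description number in the model (-0.37, 0.0730) and when only those groups were fitted (0.0546). BMI1, a Polycomb protein, rose by 0.91 ± 0.17 (3.08e-04), from 20.1, 23.0 and 25.0 TPM to 44.6, 36.0 and 50.9 TPM. Of the stem cell genes of the main list, LGR5, EPHB2 and SOX9 were not called in siVPS37ABC. Of 7 tested genes of intestinal differentiation, 3 rose and 1 fell in siVPS37ABC. The keratin KRT20 (1.75 ± 0.19, adjusted p = 2.17e-07), the cadherin CDH17 (0.55 ± 0.14, 0.00664) and the mucin MUC13 (0.56 ± 0.19, 0.0383) were higher, and the transcription factor CDX2 was lower (-1.30 ± 0.18, 1.06e-05). The MUC13 call was lost without siCTRL replicate 1 (0.256) or siVPS37ABC replicate 2 (0.175) or 3 (0.0682), after quantile normalization (0.0632), when only those groups were fitted (0.103) and against NT (0.107). That of CDH17 was lost without siVPS37ABC replicate 3 (0.0508) and against NT (0.0876). KRT20 was also lower in siCTRL than in NT by 1.05 ± 0.19 (0.00168).

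**Figure D4:**
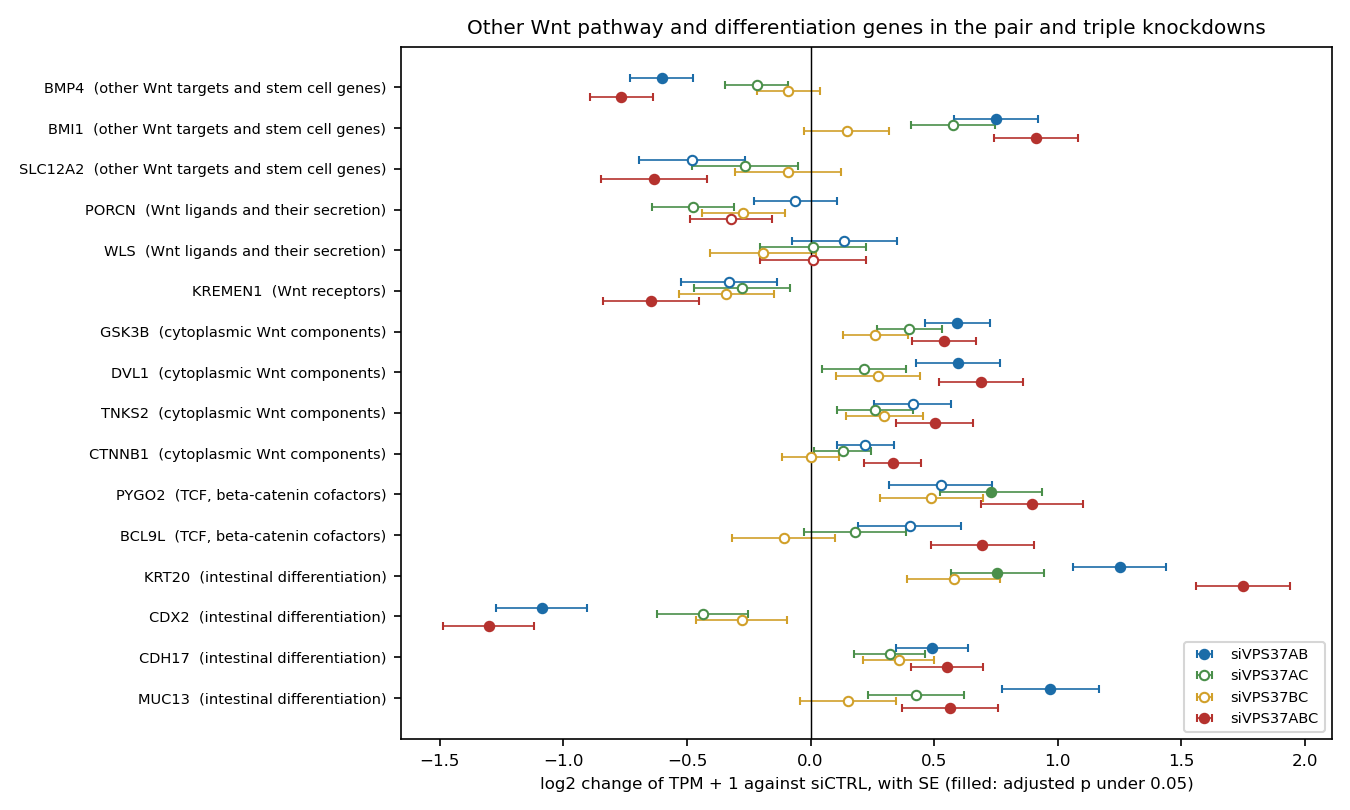
Change against siCTRL (horizontal axis, log2 change of TPM + 1, bars for the SE, n = 3) of the named genes of the other pathway lists (vertical axis, list in brackets) in the pair and triple knockdowns, filled where the adjusted p was under 0.05. Points of siVPS37ABC range from CDX2 (-1.30) to KRT20 (1.75), and those of GSK3B (0.54) and DVL1 (0.69) lie right of 0.

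In siVPS37AB, with 14.8% of tested genes called, fewer of these genes were called. BMP4 fell by 0.60 ± 0.13 (adjusted p = 0.00187), BMI1 rose by 0.75 ± 0.17 (0.00365), and GSK3B (0.59 ± 0.13, 0.00277) and DVL1 (0.60 ± 0.17, 0.0184) rose. The named differentiation genes were all called here too. KRT20 (1.25 ± 0.19, 4.92e-05), CDH17 (0.49 ± 0.14, 0.0218) and MUC13 (0.97 ± 0.19, 0.00121) rose, and CDX2 fell (-1.09 ± 0.18, 1.99e-04). KRT20 measured 82.6, 62.7 and 58.7 TPM in siVPS37AB, which overlapped NT (57.7, 55.7 and 62.4 TPM). The siVPS37AB libraries of CDH17, MUC13 and CDX2 did not overlap those of NT. CTNNB1 (0.22 ± 0.12, 0.216), TNKS2 (0.41 ± 0.16, 0.0741), PYGO2 (0.53 ± 0.21, 0.0886) and KREMEN1 (-0.33 ± 0.19, 0.276) were not called. These comparisons and those of siVPS37ABC share the siCTRL libraries.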

How the data were processed

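The values analysed are the deposited table of 27 columns, in which 2157 lines without an identifier were left out and no column belongs to other samples (0). The file's name calls them normalized counts, but each column sums to 1000000, so the values the authors deposited were taken as TPM, that is, as shares of each library's total. Whole reads could not be recovered, and depth is unknown. The tools in the submitters' processing notes are DESeq2 1.18.1 and HTSeq 0.6.0, with the build hg19, and their roles are not stated. Whether values were divided by gene length is not given in the sources used here.

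All tests used log2(TPM + 1), a scale on which changes of low genes come out too small. A limma 3.58.1 model (R 4.3.3, variance trend, 9 group means, 18 residual degrees of freedom) was fitted to the 6458 genes averaging 10 TPM or more, and p-values were adjusted within each comparison with a threshold of 0.05. LGR5 and NKD1 came from the same model on all 10470 genes. On simulated data for siVPS37ABC against siCTRL (10 simulations, 6458 genes), 87.4% of 2-fold and 43.8% of 1.5-fold changes were found, with 7.5 false calls on average. Fewer genes were changed in the simulations than the 1417 called in the data. Their noise was drawn independently for each library, without replicate structure, so these rates need not hold for the data.

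The labels give the replicate number as a batch. After removal of group means, libraries of the same number correlated with a mean r of 0.355 over 108 pairs (from -0.386 to 0.757), those of different numbers with -0.175. Deviations within a group cancel, so the second mean follows largely from the first and is no separate result. A fit with the number as a block was the alternative, and its value stands beside each printed change whose call it altered.

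The genes and lists were chosen with earlier results of these data known. All listed genes in the table were named, and of each pathway list up to 4 with the smallest p past the threshold in siVPS37ABC, or 2 as values where none passed. Genes with a pattern like that of a listed gene were to be named for genes called in at least 3 knockdowns, which none was. Other alternatives were the number closing each library description as a term, no filter, a filter of 50 TPM, a pseudocount of 8, quantile normalization, NT in place of siCTRL, fits of the compared groups alone and the omission of each library. Libraries of siVPS37A, siVPS37AB and siVPS37BC shared the number closing the description with no siCTRL library. Comparisons between single knockdowns were added after values were seen. Tests for counts were not run. Summaries and figures were made in Python 3.11.15 with matplotlib 3.10.9, pandas 2.3.3 and numpy 2.4.6.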

Additional observations from a re-analysis of the deposited data

Results flagged for a closer look

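The effect of depletion differed between single knockdowns for 2 genes, by a test of the difference itself. MYC was higher in siVPS37A than in siVPS37B by 1.00 on the log2 scale, with levels of 165 to 220.2 TPM against 95.4 to 104 TPM. LGR5 differed between siVPS37B and siVPS37C by -1.05, with 5.30 to 8.61 TPM against 11.0 to 24.0 TPM. Both comparisons were chosen after the values had been seen.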

How the results depend on the processing

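Followed here were 31 called changes. They are those of the 8 genes in all comparisons and of the other named genes in siVPS37ABC against siCTRL. Calls of those other genes in further comparisons were not followed. Of 236 values under the settings other than leaving out a library, 213 kept direction and call, 21 lost the call and 2 reversed. Of 294 values with a library left out, 244 kept both and 50 lost the call. Smaller moves in the number of the 8 genes called are left out here. Among them are the gains with the block of CCND1 in siVPS37AB, and of LGR5 in siVPS37ABC and for VPS37A siRNA. Otherwise the number of the 8 genes called moved as follows, and the cause was not tested. With the replicate block it was 1 in siVPS37A, 2 in siVPS37B, 2 in siVPS37AC, 1 in siVPS37BC, 2 for siCTRL against NT, 2 for siVPS37ABC against siVPS37BC, 4 for VPS37B siRNA, 2 for VPS37C siRNA, 2 for siVPS37A against siVPS37B, 1 for siVPS37A against siVPS37C and 2 for siVPS37B against siVPS37C. With the library number term it was 1 in siVPS37AB, 1 in siVPS37AC, 2 for siVPS37ABC against siVPS37BC, 4 for VPS37B siRNA, 2 for VPS37C siRNA, and 3, 1 and 2 for those 3 comparisons of singles. With NT as reference it was 3 in siVPS37A and siVPS37AC, 2 in siVPS37C and siVPS37BC and 1 in siVPS37ABC. Quantile normalization gave 2 for siVPS37ABC against siVPS37BC. Fits of only the groups compared gave 1 for siVPS37ABC against siVPS37AC and 0 for siVPS37B against siVPS37C.

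With each library left out in turn the counts ran from 0 to 1 in siVPS37A, 0 to 3 in siVPS37AB, 0 to 1 for siCTRL against NT, 0 to 2 for siVPS37ABC against siVPS37AC, 0 to 1 for siVPS37ABC against siVPS37BC, 2 to 5 for VPS37B siRNA, 0 to 2 for VPS37C siRNA, 1 to 2 for siVPS37A against siVPS37B and 0 to 1 for siVPS37B against siVPS37C. The 5 for VPS37B siRNA came without siVPS37A replicate 2, the 1 in siVPS37A too. Against NT the LGR5 change reversed to 0.36 in siVPS37B, 0.29 in siVPS37AB and 0.41 in siVPS37ABC, and PYGO2 to -0.40 in siVPS37ABC. WLS, near 0, gave -0.036 after quantile normalization and -0.20 to 0.17 with a library left out. Of 108 uncalled changes with an adjusted p of at least 0.2, 32 changed sign under some setting and 41 with a library left out. The unknown depth leaves the counting error of LGR5 and NKD1, the lowest genes, without a value.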
